A study of Sus scrofa with 64 samples.

Results

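Cytosolic heat shock and chaperonin genes were followed in the jejunal mucosa of piglets that were fed or fasted at 4 or 6 weeks of age. Members were taken by gene name: the HSP70 and HSP110 genes (HSPA, HSPH1), the cytosolic HSP90 genes (HSP90A), the chaperonin subunits (CCT, TCP1), HSPD1 and HSPE1, the small heat shock genes (HSPB), the J proteins (DNAJA, DNAJB, DNAJC), the BAG genes and the heat shock factors HSF1 and HSF2. HSPA5, DNAJB9 and HSPB8 were left out by the same rule. Of 31908 gene IDs in the count files, 75 carried such a name, and the 62 with a mean of at least 1 CPM (counts scaled to a common library size) over all 64 pigs are the members. The name rule reached beyond the cytosol: 8 members were grouped here as mitochondrial and 9 as J proteins of the endoplasmic reticulum (ER). These groups need not be complete: DNAJC14 was counted with the other class C J proteins and HSPA13 with the HSP70 class. The threshold fell between DNAJC27 at 1.55 CPM and DNAJC24 at 2.44 CPM just inside, and HSPA12A at 0.931 CPM and DNAJC17 at 0.924 CPM just outside.

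The other 13 named IDs lay under 1 CPM. Among them was the ID paired with the chaperonin subunit CCT2, at a mean of 0.0371 CPM, and no ID was paired with CCT6A, so the cytosolic chaperonin is described here by 6 of its subunits. No ID was paired with the inducible HSP70 genes HSPA1A and HSPA1B or with HSPA2. HSP70 genes are near copies of each other, so counts of HSPA1L, HSPA6 and HSPA8 may share or lose reads and are uncertain to that extent. All 62 members entered the tests.

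The 64 female piglets were of TN20 stock, a cross of Large White and Norwegian Landrace, and each gave 1 library of mid-jejunal mucosa scraped off with glass slides. There were 16 fed and 16 fasted piglets at each age, and fasting meant 48 h without milk or feed but with free water. At 4 weeks all had been suckling on a commercial farm without creep feed, where the fed group stayed with the sow and the fasted group went to a separate pen. The 6-week piglets had moved to a research facility at 4 weeks of age, lived in pairs there and ate a weaning diet for 2 weeks. Age, weaning, diet and housing therefore cannot be told apart between the ages, and at 4 weeks fasting and removal from the sow cannot be told apart. The comparisons address what 48 h of fasting changes in the suckling and in the weaned jejunum.

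Chaperones of the HSP70 class bind short stretches of unfolded protein and release them in a cycle driven by ATP. J proteins deliver the clients and start the hydrolysis, while HSP110 and BAG proteins exchange the nucleotide and so end the cycle. HSP90 then matures signalling proteins such as steroid receptors and kinases, and the cytosolic chaperonin CCT, a double ring of different subunits, folds actin and tubulin in its cavity. HSPD1 and its lid HSPE1 form the corresponding chamber in mitochondria. The factor HSF1 drives many of these genes under heat and other proteotoxic stress, and growing and dividing cells also make much of the constitutive set.

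Libraries held 18774144 to 21159989 gene counts, and 14062 genes were tested. Members took 0.408 to 0.519% of the counts in fed and 0.41 to 0.924% in fasted 4-week piglets, against 0.533 to 1.07% in fed and 0.431 to 0.656% in fasted 6-week piglets. Markers of absorptive enterocytes were abundant in every library, with summed levels of 14000 to 124000 CPM for 8 genes, but they too differed between groups, with medians of 102000 CPM in fed and 63200 CPM in fasted 4-week piglets and of 56500 CPM in fed and 69000 CPM in fasted 6-week piglets. Single enterocyte markers did not all follow that sum. Of the 8 genes, 1 rose and 3 fell with fasting at 4 weeks, and 1 rose and 0 fell at 6 weeks. In fed piglets from 4 to 6 weeks 5 rose and 2 fell, with a median of 0.64 on the log2 scale, although the summed median was lower. Markers of other cells also moved with the groups. Medians of 8 summed crypt genes were 193, 1180, 2040 and 1870 CPM in fed 4-week, fasted 4-week, fed 6-week and fasted 6-week piglets. Of these genes 8 of 8 rose in fasted piglets at 4 weeks and 0 were called at 6 weeks. The part of the enterocyte and crypt markers in the results was not tested. The summed level of 12 cell cycle genes ranged from 79.3 to 188 CPM in fed and from 84.8 to 621 CPM in fasted 4-week piglets, and from 169 to 522 CPM in fed and from 111 to 462 CPM in fasted 6-week piglets. Summed over 10 smooth muscle genes, levels were 235 to 882, 48.9 to 357, 187 to 569 and 67.9 to 304 CPM in the same order of groups, and those of 10 immediate early genes, which respond rapidly to stimulation, were 527 to 1620, 567 to 2080, 464 to 1450 and 400 to 891 CPM. In bulk tissue, fewer cells of a type and less RNA per cell cannot be told apart. No number in the labels says which pigs shared a litter or a pen, so p-values treat pigs as unrelated.

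Several abundant chaperone genes moved in opposite directions with fasting at the 2 ages. HSPA8, HSPH1, HSP90AA1, DNAJA1, HSPD1, HSPE1 and most chaperonin subunits rose in fasted piglets at 4 weeks and fell in fasted piglets at 6 weeks. At 4 weeks 25 of 62 members rose and 20 fell (edgeR quasi-likelihood test, Benjamini-Hochberg adjusted p under 0.05 over all genes). Of all 14062 genes tested, 33.9% rose and 29.4% fell, 63.4% together, so the 45 members called at 4 weeks are a share near the background. At 6 weeks 7 members rose and 32 fell, which is 11.3 and 51.6% of the members. The background was 22.7% risen and 18.4% fallen, 41.1% together. The median member stood at −0.07 on the log2 scale at 4 weeks, against 0.03 for all genes, and at −0.27 at 6 weeks, against 0.01 for all genes.

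Taken per gene, 18 members rose at 4 weeks and fell at 6 weeks, which is 29% of the members. The same holds for 6.12% of all genes tested. They were the chaperonin subunits TCP1, CCT3, CCT4, CCT5 and CCT8, the HSP70 class genes HSPA8, HSPA14, HSPA4L and HSPH1, HSP90AA1, HSPB1, the mitochondrial HSPA9, HSPD1, HSPE1 and DNAJC11, and the J proteins DNAJA1, DNAJC7 and DNAJC8. The fall of DNAJC7 at 6 weeks (−0.19, edgeR adjusted p = 0.04) lost its call without any 1 of 11 pigs, and DNAJC7 left the pattern under limma-voom and under scaling by library size alone. In the opposite order, 5 members fell at 4 weeks and rose at 6 weeks (BAG4, BAG5, DNAJB12, DNAJC16 and DNAJC22), which is 8.06% of members and 5.31% of all genes. The rise of BAG5 at 6 weeks (0.16, edgeR adjusted p = 0.039) lost its call without any 1 of 14 pigs. A further 8 fell at both ages, 12.9% against 7.1% of all genes, and 0 rose at both, against 7.96% of all genes. The difference between the ages in the effect of fasting was lower at 6 weeks for 31 members and higher for 13, where the background was 26.6 and 27.1%, or 53.7% together. That test uses the same pigs as the comparisons at each age.

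**Figure D1:**
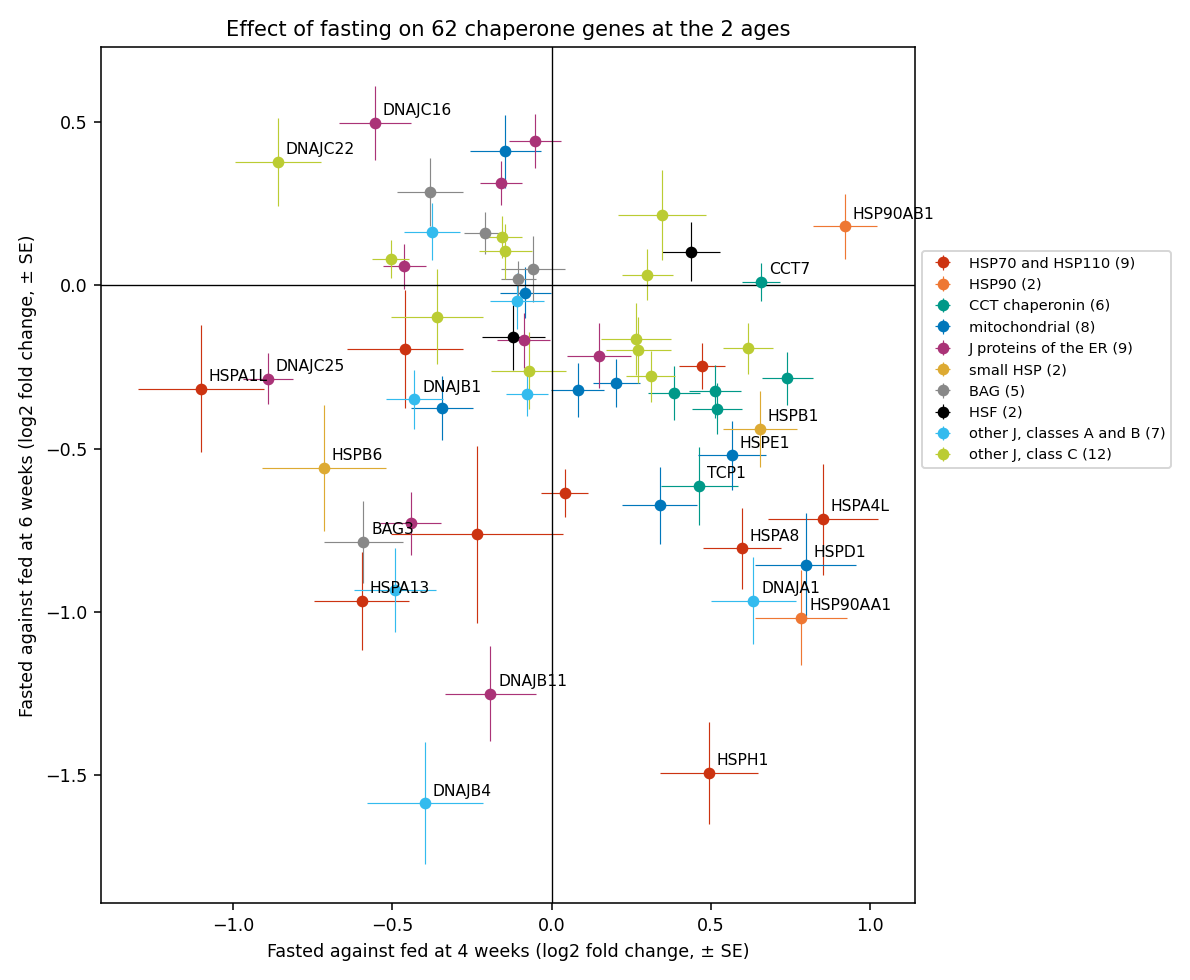
Effect of fasting on each of the 62 members at 4 weeks (horizontal axis) and at 6 weeks (vertical axis), as log2 fold change ± SE from the edgeR model, coloured by role with the number of members in brackets. The lower right part holds the members that were higher in fasted piglets at 4 weeks and lower at 6 weeks, with HSPH1 lowest in it at 0.49 and −1.49.

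Cell cycle genes moved with this pattern. All 12 measured cell cycle markers rose at 4 weeks, with a median of 1.39 on the log2 scale, and 3 of 12 fell at 6 weeks, with a median of −0.36. When the mean level of these markers per pig was added to the model as a covariate, a choice made after seeing the data, 10 members rather than 25 rose at 4 weeks, while 30 rather than 32 fell at 6 weeks. The members that rose at 4 weeks and fell at 6 weeks then numbered 5, HSPA8, DNAJA1, HSPA14, CCT5 and HSPB1. Over all genes, 26.1% rose at 4 weeks and 16.1% fell at 6 weeks in that model. Smooth muscle and immediate early levels as covariates left 17 and 21 members in the pattern. The share of all genes with this pattern was computed only for the main test without covariates. Counts of the pattern with a covariate therefore have no background beside them. As the cell cycle markers themselves moved with fasting, their covariate can also take up part of the fasting effect. Their part in the pattern was not tested.

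HSPA8, the constitutive cytosolic HSP70 (chromosome 9, 49982278 to 49986760 of Sscrofa11.1, protein-coding), took 16.1 to 33.8% of the members' counts. At 4 weeks it ranged from 756 to 1250 CPM around a median of 994 in fed piglets and from 736 to 2570 CPM around a median of 1470 in fasted piglets. At 6 weeks the fed piglets ranged from 1340 to 3660 CPM around a median of 1790 and the fasted from 804 to 1530 CPM around a median of 1090. The 2 fed groups did not overlap, and fasted piglets of both ages lay between or across them. The share of all genes without overlap between groups was not computed for any comparison. The rise at 4 weeks was 0.60 on the log2 scale (SE 0.12, edgeR adjusted p = 2.7e-05), with 14 of 16 fasted piglets above the fed median. At 6 weeks HSPA8 fell by 0.81 (SE 0.12, adjusted p = 4.9e-07), with 16 of 16 below the fed median. The effects differed between the ages by −1.40 (SE 0.17, adjusted p = 7.2e-10), and by −1.06 (adjusted p = 6.7e-05) with the cell cycle covariate.

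HSPH1 (chromosome 11, 7733874 to 7759528, protein-coding), the HSP110 that exchanges the nucleotide of HSP70, had the largest fall of the HSP70 class at 6 weeks. In fed 6-week piglets it ranged from 40.8 to 218 CPM around a median of 80.5, and in fasted ones from 18.5 to 50.6 CPM around a median of 28.7. All 16 fasted piglets lay below the fed median, and the ranges overlapped only at their ends (log2 fold change −1.49, SE 0.15, edgeR adjusted p = 4.3e-11). At 4 weeks the order was turned: 27.1 to 55.9 CPM in fed piglets (median 34.2) and 25.6 to 83.5 CPM in fasted ones (median 52.4), a rise of 0.49 (SE 0.15, adjusted p = 0.0039). The highest fed 6-week level, 218 CPM in pig 60, stood above the next at 121 CPM, and without any single pig the fall at 6 weeks stayed between −1.56 and −1.35. With the cell cycle covariate the value at 4 weeks was −0.03 (adjusted p = 0.89) and the fall at 6 weeks −1.31 (adjusted p = 1.2e-10).

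Pig 60 also had the highest fed 6-week level of HSPA8 (3660 CPM, the next 2400), HSP90AA1 (1980 CPM, the next 1300) and DNAJA1 (374 CPM, the next 219), and of 14 members in all. Without pig 60 the fall of HSPA6, a further inducible HSP70, at 6 weeks lost its call. The value was −0.76 with all pigs (edgeR adjusted p = 0.02) and −0.60 without that pig (adjusted p = 0.065). No called value of a member moved by more than 1.5 times when any single pig was left out.

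The other HSP70 class genes divided. HSPA4, a second HSP110 type exchanger, had medians of 110 and 107 CPM in fed and fasted 4-week piglets, and did not pass the test (0.04, SE 0.07, edgeR adjusted p = 0.65). At 6 weeks it went from 114 to 219 CPM (median 161) in fed to 90.1 to 128 CPM (median 106) in fasted piglets, a fall of 0.64 (SE 0.07, adjusted p = 8.9e-10) with 16 of 16 below the fed median. HSPA4L, its close relative, rose by 0.85 at 4 weeks (SE 0.17, adjusted p = 2e-05), from a median of 6.43 to one of 11.2 CPM, and fell by 0.72 at 6 weeks (SE 0.17, adjusted p = 0.00057), from 16.7 to 10.8 CPM. HSPA4L at 4 weeks was at −0.23 (adjusted p = 0.06) with the cell cycle covariate. HSPA13, an HSP70 relative of the microsomes, fell at both ages, by 0.60 and by 0.97 (adjusted p = 0.00043 and 6.6e-07), and the fall at 4 weeks was at −0.35 with adjusted p = 0.051 when libraries were scaled by size alone.

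HSPA1L, a constitutive HSP70 best known from the testis, had the largest fall of all members at 4 weeks at a low level. It ranged from 2.81 to 11.3 CPM in fed and from 0.663 to 4.55 CPM in fasted piglets, with medians of 4.40 and 2.23 (log2 fold change −1.10, SE 0.20, edgeR adjusted p = 2.3e-06). At 6 weeks the medians were 3.36 and 3.12 CPM (−0.32, adjusted p = 0.19). In all, 4 of 9 HSP70 class members rose and 3 fell at 4 weeks, and 7 of 9 fell and 0 rose at 6 weeks, with a median of −0.72. The shares at 4 weeks, 44.4 and 33.3%, lay near those of all genes, 33.9 and 29.4%. At 6 weeks 77.8% of the class fell, against 18.4% of all genes.

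**Figure D2:**
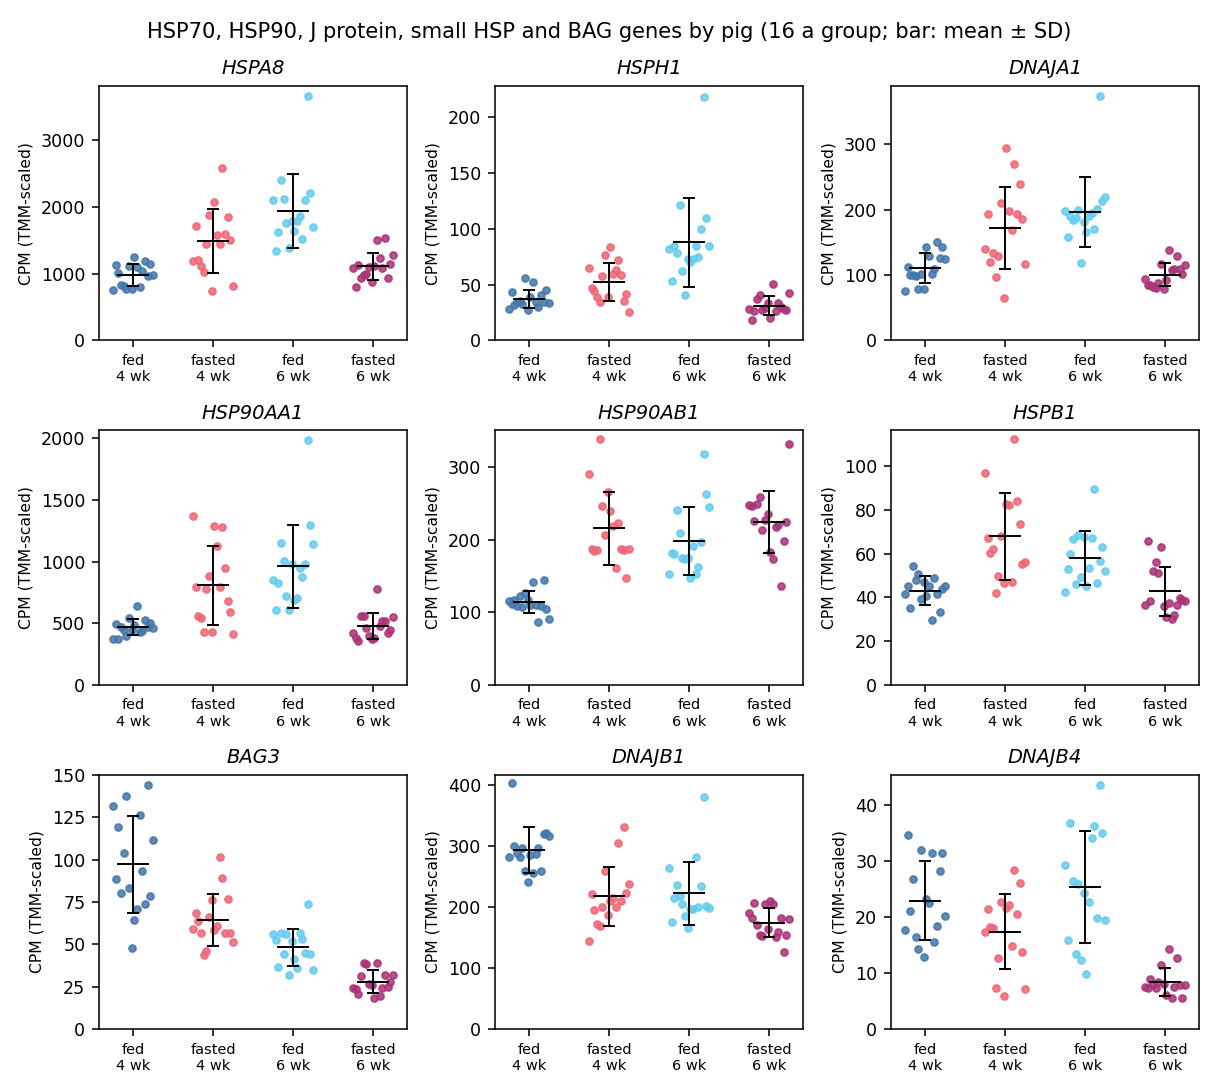
CPM (TMM-scaled) of 9 members in each pig, 16 per group, with the mean ± SD as a bar. HSPA8, HSPH1, DNAJA1 and HSP90AA1 are low in fed 4-week and fasted 6-week piglets and spread upward in the other 2 groups, HSP90AB1 is low only in fed 4-week piglets, and BAG3 steps down over the 4 groups.

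The 2 cytosolic HSP90 genes differed in their course. HSP90AA1, the stress-responsive isoform, ranged from 372 to 639 CPM around a median of 464 in fed 4-week piglets and from 409 to 1370 CPM around a median of 786 in fasted ones. At 6 weeks the fed piglets held 605 to 1980 CPM around a median of 912 and the fasted 357 to 775 CPM around a median of 452. It rose by 0.79 at 4 weeks (SE 0.14, edgeR adjusted p = 3.7e-06) and fell by 1.02 at 6 weeks (SE 0.14, adjusted p = 1.1e-07). With the cell cycle covariate the rise was 0.15 with adjusted p = 0.39.

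HSP90AB1, the constitutive isoform (chromosome 7, 39237299 to 39250479, protein-coding), gave the largest rise of any member at 4 weeks. All fasted 4-week piglets, at 148 to 339 CPM (median 197), lay above all fed ones, at 86.8 to 145 CPM (median 111). That rise was 0.92 (SE 0.10, edgeR adjusted p = 5.2e-12), and 0.77 (adjusted p = 2.4e-07) with the cell cycle covariate. At 6 weeks fed piglets held 147 to 319 CPM (median 181) and fasted piglets 136 to 332 CPM (median 225), so the ranges overlapped almost entirely (0.18, SE 0.10, adjusted p = 0.14). Without pig 60 that value was 0.24 with adjusted p = 0.04. The difference between ages was −0.74 (SE 0.14, adjusted p = 1.1e-05).

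All 6 measured subunits of the cytosolic chaperonin rose at 4 weeks, by 0.38 to 0.74 on the log2 scale (median 0.52). CCT5 had the largest rise: 73.4 to 102 CPM (median 86.6) in fed and 111 to 214 CPM (median 134) in fasted piglets, with no overlap (0.74, SE 0.08, edgeR adjusted p = 5.4e-12). CCT7 did not overlap either, at 91.7 to 123 CPM (median 106) against 129 to 208 CPM (median 169), a rise of 0.66 (SE 0.06, adjusted p = 7.1e-15). For CCT3, CCT4 and CCT8 all 16 fasted piglets lay above the fed median (0.52, 0.51 and 0.38, adjusted p = 5.5e-08, 1.4e-07 and 5.5e-05), and for TCP1 13 of 16 did (0.47, adjusted p = 0.00063). In fasted 4-week piglets the highest level of all 6 subunits was that of pig 1.

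At 6 weeks 5 of the 6 subunits fell and CCT7 did not pass the test. TCP1 fell most, from 23.7 to 49.8 CPM (median 38.4) in fed to 15.5 to 34 CPM (median 24.9) in fasted piglets (−0.61, SE 0.12, edgeR adjusted p = 3.9e-05). CCT3, CCT4, CCT5 and CCT8 fell by 0.38, 0.32, 0.29 and 0.33 (adjusted p = 9e-05, 0.00098, 0.0035 and 0.0011). CCT7 held 127 to 177 CPM (median 141) in fed and 120 to 169 CPM (median 148) in fasted piglets (0.01, SE 0.06, adjusted p = 0.9). The fasting effect was lower at 6 than at 4 weeks in all 6, by −0.65 for CCT7 to −1.08 for TCP1. With the cell cycle covariate CCT5 and CCT7 still rose at 4 weeks (0.39 and 0.58, adjusted p = 1.4e-05 and 7.3e-10). CCT3, CCT4 and CCT8 were then at 0.15, 0.15 and 0.04 and TCP1 at −0.14, none past the threshold. The differences between ages of TCP1 and CCT8 did not pass either in that model (−0.29 and −0.25, adjusted p = 0.13 and 0.09).

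**Figure D3:**
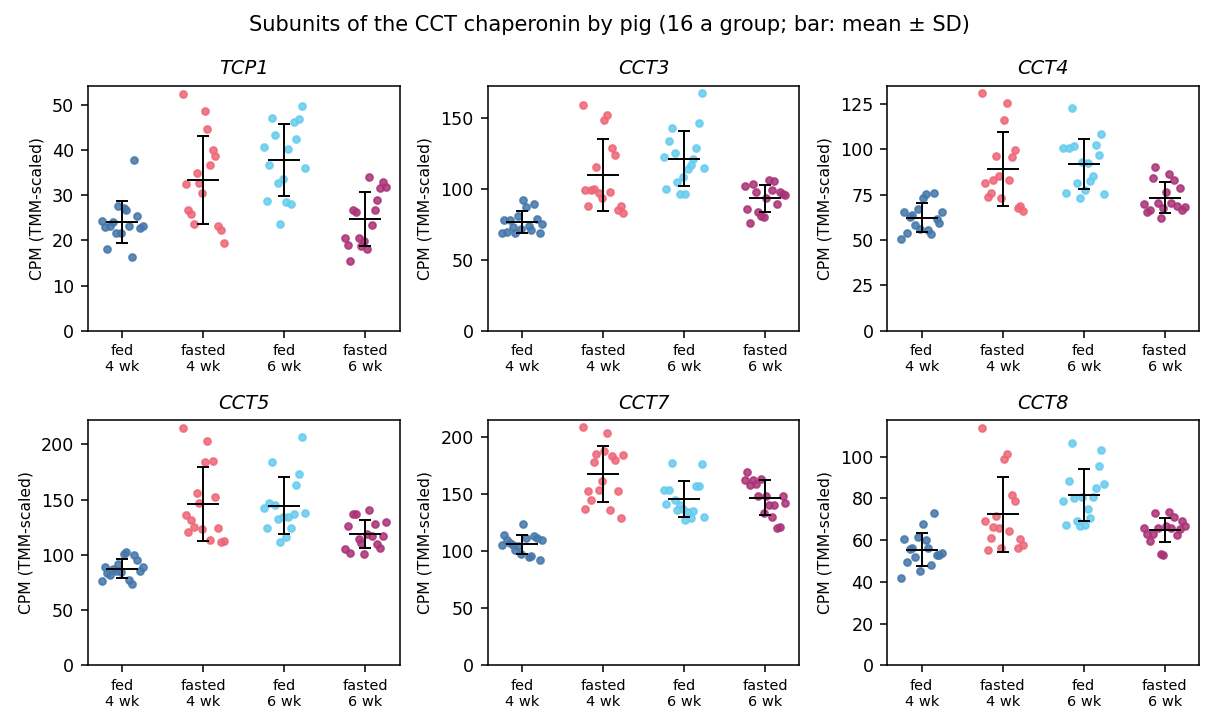
CPM (TMM-scaled) of the 6 measured subunits of the cytosolic chaperonin in each pig, 16 per group, with the mean ± SD as a bar. Fed 4-week piglets are lowest in median for every subunit, and CCT7 is the subunit whose 6-week groups lie at the same level, with medians of 141 and 148 CPM.

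The mitochondrial chaperonin also rose at 4 weeks and fell at 6 weeks. HSPD1, the chamber (chromosome 15, 101360355 to 101373498, protein-coding), ranged from 55.5 to 115 CPM (median 77.2) in fed and from 62.1 to 248 CPM (median 138) in fasted 4-week piglets, a rise of 0.80 (SE 0.16, edgeR adjusted p = 1.4e-05). At 6 weeks the ranges were 104 to 331 CPM (median 180) in fed and 63.5 to 154 CPM (median 105) in fasted piglets, a fall of 0.86 (SE 0.16, adjusted p = 1.5e-05). HSPE1, the lid, lies beside it with 520 bases between them (101374019 to 101376146), so the pair are neighbours on the chromosome. HSPE1 rose by 0.57 (SE 0.11, adjusted p = 5.6e-06), from a median of 46.5 to one of 66.3 CPM, and fell at 6 weeks by 0.52 (SE 0.11, adjusted p = 7.6e-05), from 79.8 to 59.7 CPM. HSPA9, the mitochondrial HSP70, rose by 0.34 (SE 0.12, adjusted p = 0.0094) and fell by 0.67 (SE 0.12, adjusted p = 5.4e-06). With the cell cycle covariate the values at 4 weeks were −0.07, 0.11 and −0.23 for HSPD1, HSPE1 and HSPA9, none past the threshold, while all 3 falls at 6 weeks held.

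Within each group of 16 pigs the mean of the 6 cytosolic subunits and HSPD1 were correlated. On the log2(CPM + 1) scale Pearson's r reached 0.913 for fed 4-week, 0.945 for fasted 4-week, 0.939 for fed 6-week and 0.871 for fasted 6-week piglets (2-sided permutation p = 1e-05, 1e-05, 1e-05 and 2e-05, where 1e-05 is the smallest that 100000 resamples can give). Adjusted over 12 relations these were 4e-05, 4e-05, 4e-05 and 6e-05. Spearman's rho was 0.885, 0.976, 0.926 and 0.876 (adjusted permutation p = 8e-05, 6e-05, 6e-05 and 9e-05), and without the 2 pigs farthest from the median r was 0.902, 0.928, 0.914 and 0.842. Both measures come from the same library and share its scaling, and with scaling by library size alone r ran from 0.93 to 0.963.

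**Figure D4:**
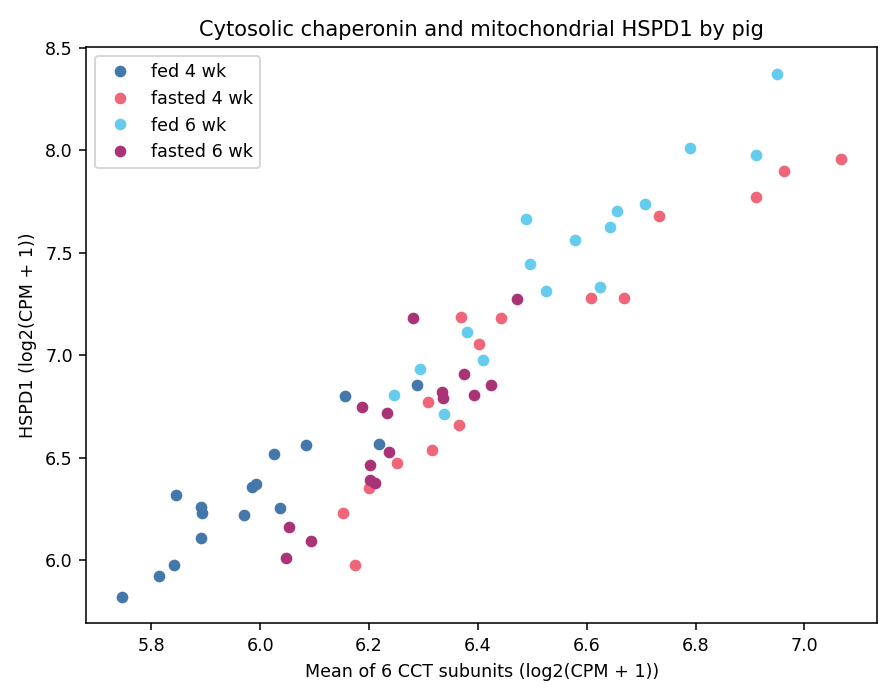
HSPD1 against the mean of the 6 cytosolic chaperonin subunits in each pig, both as log2(CPM + 1), coloured by group. The points of each group lie along a rising line, with r from 0.871 to 0.945 within groups, and fasted 4-week piglets span the longest stretch of it.

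HSPH1 and the mean of the chaperonin subunits were correlated less closely, with r of 0.657, 0.74, 0.681 and 0.585 in fed 4-week, fasted 4-week, fed 6-week and fasted 6-week piglets (adjusted permutation p = 0.0071, 0.0024, 0.0049 and 0.018). Spearman's rank correlation was 0.753, 0.788, 0.771 and 0.591 (adjusted permutation p = 0.0022, 0.0015, 0.0015 and 0.019), and without the 2 farthest pigs r was 0.635, 0.668, 0.636 and 0.488. HSPH1 and HSPA8 had r of 0.68, 0.689 and 0.878 in the first 3 groups (adjusted permutation p = 0.0049, 0.0049 and 0.00014; rho 0.703, 0.662 and 0.703, adjusted permutation p = 0.0044, 0.0079 and 0.0044). Without the 2 farthest pigs these r were 0.703, 0.542 and 0.686. In fasted 6-week piglets r was 0.375 (adjusted permutation p = 0.15; rho 0.135, adjusted permutation p = 0.62), and −0.146 without the 2 farthest pigs. With scaling by library size alone that relation had r of 0.591 and rho of 0.585 (adjusted permutation p = 0.016 and 0.019) and r of 0.238 without the 2 farthest pigs, so it depended on the scaling and on those pigs.

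Of the other mitochondrial members, DNAJC11, which associates with the complex that shapes the cristae, rose at 4 and fell at 6 weeks, with the rise lost without fasted pig 1, when it was 0.15 with adjusted p = 0.066. DNAJC28 went the other way at 6 weeks, where it rose by 0.41 (SE 0.11, edgeR adjusted p = 0.0025). Its medians at 4 weeks, 9.25 CPM when fed and 8.41 CPM when fasted, were not told apart by the test (−0.15, adjusted p = 0.26). In all, 4 of 8 mitochondrial members rose and 1 fell at 4 weeks, and 6 fell and 1 rose at 6 weeks. That is 50% risen and 12.5% fallen at 4 weeks, against 33.9 and 29.4% of all genes. At 6 weeks it is 75% fallen and 12.5% risen, against 18.4 and 22.7%.

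Of the small heat shock proteins, which hold unfolding clients without ATP, HSPB1 rose at 4 and fell at 6 weeks. Its levels were 29.7 to 54.5 CPM (median 44.6) in fed and 41.9 to 112 CPM (median 64.4) in fasted 4-week piglets. At 6 weeks they were 42.3 to 89.6 CPM (median 54.9) in fed and 30.3 to 65.8 CPM (median 38.4) in fasted piglets. The rise was 0.65 (SE 0.12, edgeR adjusted p = 1.7e-06) and the value at 6 weeks −0.44 (SE 0.12, adjusted p = 0.0017), and both kept their calls with the cell cycle covariate. HSPB6, a small heat shock protein of muscle, fell by 0.71 and by 0.56 (adjusted p = 0.0011 and 0.017). Smooth muscle markers fell beside it, 9 of 10 at 4 weeks and 6 of 10 at 6 weeks. With their level as a covariate HSPB6 stood at 0.35 (adjusted p = 0.056) at 4 weeks and −0.09 (adjusted p = 0.6) at 6 weeks. These markers themselves moved with fasting, with medians of −1.56 and −0.82 on the log2 scale. The covariate can therefore take up part of the fasting effect whatever its cause. The part of smooth muscle in the fall of HSPB6 was not tested.

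The J proteins showed every direction. DNAJA1, a main partner of HSPA8, ranged from 75.9 to 150 CPM (median 105) in fed and from 65.2 to 294 CPM (median 177) in fasted 4-week piglets, a rise of 0.63 (SE 0.13, edgeR adjusted p = 3.6e-05). At 6 weeks it ranged from 119 to 374 CPM (median 190) in fed and from 79.2 to 138 CPM (median 98.1) in fasted piglets, a fall of 0.97 (SE 0.13, adjusted p = 5.9e-08). All 16 fasted 6-week piglets lay below the fed median. DNAJB1, the HSP40 that HSF1 induces strongly on heat shock, did not follow it.

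DNAJB1 fell at both ages. It ranged from 241 to 403 CPM (median 287) in fed and from 145 to 331 CPM (median 209) in fasted 4-week piglets, and from 166 to 381 CPM (median 204) in fed and from 127 to 210 CPM (median 176) in fasted 6-week piglets. On the log2 scale it stood at −0.43 at 4 weeks (SE 0.09, edgeR adjusted p = 3.7e-05) and at −0.35 at 6 weeks (SE 0.09, adjusted p = 0.0015), and the difference between ages was 0.08 (SE 0.13, adjusted p = 0.61). DNAJB4, a close relative, gave the largest fall of all members at 6 weeks: 9.90 to 43.6 CPM (median 25.1) in fed and 5.58 to 14.3 CPM (median 7.94) in fasted piglets (−1.59, SE 0.19, adjusted p = 1.1e-09). At 4 weeks its medians were 21.8 and 18.3 CPM (−0.40, SE 0.18, adjusted p = 0.052). The difference between ages was −1.19 (SE 0.26, adjusted p = 9.1e-05).

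Among the J proteins of the ER, DNAJB11, which serves the lumenal HSP70, fell by 1.25 at 6 weeks (SE 0.14, edgeR adjusted p = 7.6e-10), from a median of 125 to one of 46.1 CPM. At 4 weeks its medians were 101 and 92.7 CPM (−0.19, SE 0.14, adjusted p = 0.24). DNAJC25 fell at 4 weeks without overlap, from 25.0 to 46.6 CPM (median 33.1) in fed to 13.9 to 23.3 CPM (median 18.4) in fasted piglets (−0.89, SE 0.08, adjusted p = 2.6e-15), and less at 6 weeks (−0.29, SE 0.08, adjusted p = 0.0025). DNAJC16, a J protein of the ER membrane, fell by 0.56 at 4 weeks (adjusted p = 2.1e-05), from a median of 46.0 to 32.2 CPM, and rose by 0.50 at 6 weeks (adjusted p = 0.00032), from 31.9 to 44.6 CPM. DNAJC18 and DNAJB12, both of the ER membrane, rose at 6 weeks by 0.44 and 0.31 (adjusted p = 1.5e-05 and 0.00013). DNAJB12 fell by 0.16 at 4 weeks (adjusted p = 0.034), a call lost without any 1 of 8 pigs, and it stood at 0.04 (adjusted p = 0.36) with scaling by library size alone. Of the 9 members grouped as ER J proteins, 5 fell and 0 rose at 4 weeks, and 3 fell and 3 rose at 6 weeks. The falls at 4 weeks are 55.6%, against 29.4% of all genes. At 6 weeks 33.3% fell and 33.3% rose, against 18.4 and 22.7% of all genes.

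DNAJC22, whose fly homologue takes part in endocytosis, had the most positive difference between ages in the effect of fasting among the members (1.24, edgeR adjusted p = 1.5e-07). It ranged from 119 to 193 CPM (median 152) in fed and from 22.4 to 131 CPM (median 80.1) in fasted 4-week piglets, or −0.86 on the log2 scale (SE 0.14, edgeR adjusted p = 1.3e-07). All 16 fasted piglets lay below the fed median. At 6 weeks it ranged from 53.2 to 104 CPM (median 77) in fed and from 74.7 to 149 CPM (median 90.4) in fasted piglets, a rise of 0.38 (SE 0.13, adjusted p = 0.019). That rise was 0.32 with adjusted p = 0.055 without fasted pig 35. Of the 12 remaining class C J proteins, this one included, 6 rose and 4 fell at 4 weeks and 1 rose and 2 fell at 6 weeks. That is 50 and 33.3% at 4 weeks, against 33.9 and 29.4% of all genes. At 6 weeks it is 8.33 and 16.7%, against 22.7 and 18.4%.

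BAG3, which links HSP70 to selective autophagy and is a classical HSF1 target, fell at both ages and with age. Fed 4-week piglets held 48.1 to 144 CPM (median 91.0), fasted 4-week piglets 43.9 to 101 CPM (median 59.9), fed 6-week piglets 32.1 to 74.0 CPM (median 48.6) and fasted 6-week piglets 18.2 to 39.1 CPM (median 26.3). Fasting gave −0.59 on the log2 scale at 4 weeks (SE 0.12, edgeR adjusted p = 4.1e-05) and −0.79 at 6 weeks (SE 0.13, adjusted p = 1.2e-06), and the difference between them, −0.20 (SE 0.18), did not pass the test (adjusted p = 0.36). BAG4, an anti-apoptotic HSP70 partner, fell at 4 weeks by 0.38 and rose at 6 weeks by 0.29 (adjusted p = 0.0012 and 0.022). With the cell cycle covariate neither passed the test (−0.08 and 0.17, adjusted p = 0.55 and 0.13). With the smooth muscle covariate the 6-week value did not pass (0.13, adjusted p = 0.33), and with scaling by library size alone the 4-week value did not (−0.18, adjusted p = 0.07).

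HSF1 itself rose by 0.44 at 4 weeks (SE 0.09, edgeR adjusted p = 2.4e-05), from 16.0 to 30.2 CPM (median 24.0) in fed to 19.9 to 47.9 CPM (median 30.6) in fasted piglets. At 6 weeks its medians were 23.0 and 22.4 CPM (0.10, SE 0.09, adjusted p = 0.37). HSF2, the related factor of development, had medians of 4.30, 3.74, 4.36 and 3.94 CPM in fed 4-week, fasted 4-week, fed 6-week and fasted 6-week piglets and passed the test in no comparison (adjusted p from 0.19 to 0.97).

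**Figure D5:**
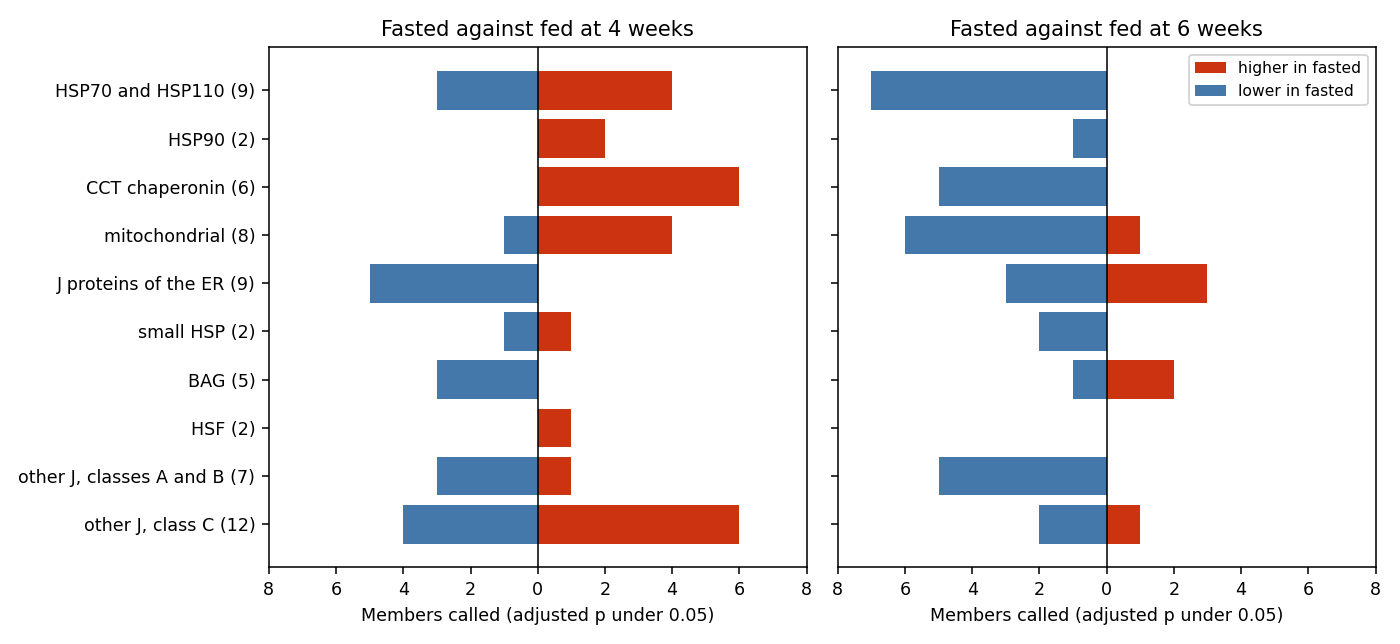
Number of members called (edgeR adjusted p under 0.05) as higher (right of 0) or lower (left of 0) in fasted piglets at 4 weeks and at 6 weeks, by role, with the number of members in brackets. The chaperonin goes from 6 higher at 4 weeks to 5 lower at 6 weeks, and the HSP70 class from 4 higher and 3 lower to 7 lower. Over all genes tested, 33.9% were higher and 29.4% lower at 4 weeks, and 22.7 and 18.4% at 6 weeks.

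In fed piglets the chaperonin, HSP90 and HSPA8 were higher at 6 than at 4 weeks. This comparison shares the fed 4-week pigs with that of fasting at 4 weeks. From 4 to 6 weeks 29 members rose and 17 fell in fed piglets (background 31.9 and 32.3%, 64.2% together), with a median of 0.15 against −0.01 for all genes. All 6 chaperonin subunits rose (median 0.60), as did both HSP90 genes, 5 of 9 HSP70 class members and 5 of 8 mitochondrial members, while 4 of 5 BAG genes and 6 of 9 ER J proteins fell. The largest rises were those of HSPA4L (1.35, SE 0.17, edgeR adjusted p = 8.1e-10), HSPH1 (1.24), HSPD1 (1.19), HSP90AA1 (1.04) and HSPA8 (0.98). Fed 6-week piglets lay wholly above fed 4-week piglets for HSPA8, HSP90AB1, CCT3, CCT5, CCT7 and DNAJC10. How many of all genes did so was not computed. Of the 12 cell cycle markers 11 rose here, with a median of 1.77, and with their level as a covariate 11 members rose and 6 fell, where 19.4% of all genes rose and 22.1% fell in the same model.

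Falls with age in fed piglets were led by BAG3 (−1.01, SE 0.13, edgeR adjusted p = 3.4e-10) and DNAJC22 (−0.97, SE 0.14, adjusted p = 7e-09). DNAJC14, which assists receptor export from the ER, fell from 53.6 to 80.7 CPM (median 63.3) to 32.7 to 46.2 CPM (median 39.1), without overlap (−0.74, SE 0.06, adjusted p = 1.9e-17). DNAJB14 did not overlap either (−0.52, SE 0.07, adjusted p = 1.2e-09), and DNAJC16 fell by 0.64 (SE 0.11, adjusted p = 1.8e-06).

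Between the fasted groups, 9 members rose and 28 fell from 4 to 6 weeks (background 19.7 and 23.2%, 42.9% together). BAG3 fell by 1.20 (SE 0.13, edgeR adjusted p = 1.6e-11), with every fasted 6-week piglet below every fasted 4-week piglet. DNAJB4 fell by 1.05 (adjusted p = 5.3e-06), DNAJA1 by 0.78 (3.1e-06 by the same test), HSP90AA1 by 0.77 (1.6e-05) and HSPH1 by 0.75 (5.8e-05). The largest rises were those of DNAJC10, an ER reductase with a J domain (0.51, SE 0.10, adjusted p = 3.1e-05), and DNAJC6, which uncoats clathrin vesicles with HSPA8 (0.50, SE 0.14, adjusted p = 0.0025).

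Ordered by group mean, 12 members ran from fed 6-week over fasted 4-week and fasted 6-week down to fed 4-week piglets, among them HSPA8, HSP90AA1, HSPD1, HSPE1, HSPA4L, TCP1, CCT3, CCT4 and CCT8. The neighbours fasted 6-week and fed 4-week overlapped in each of these. The share of all genes with this order was not computed. For HSP90AA1 the means of fasted 6-week and fed 4-week piglets, 475 and 468 CPM, were close. Its medians in those groups, 452 and 464 CPM, ran the other way. Spread between pigs also differed. The coefficient of variation was larger in fasted than in fed 4-week piglets for 52 of 62 members (83.9%, against 76.8% of all genes), with medians of 23.1 and 15.0%. At 6 weeks it was larger in fasted piglets for 37.1% of members, against 55.6% of all genes. In fasted 4-week piglets pig 1 was highest for 19 members and pig 16 lowest for 12. Without the fasted 4-week pigs 1, 28 and 32 the members that rose at 4 and fell at 6 weeks were the same 18.

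Outside the member list, of 17 cochaperones of HSP90 and HSP70, 10 rose and 3 fell at 4 weeks and 1 rose and 11 fell at 6 weeks, with medians of 0.24 and −0.30. Over all genes the shares risen and fallen were 33.9 and 29.4% at 4 weeks and 22.7 and 18.4% at 6 weeks. FKBP5, the glucocorticoid-induced HSP90 partner, rose by 1.31 at 4 weeks (SE 0.12, edgeR adjusted p = 1.1e-14) and stood at 0.04 at 6 weeks (adjusted p = 0.83). PTGES3, the p23 cochaperone, rose by 0.76 and fell by 0.44 (adjusted p = 8.6e-10 and 0.00025), and CHORDC1 rose by 0.40 and fell by 0.79 (adjusted p = 0.00059 and 1.3e-08). STIP1, which bridges HSP70 and HSP90, fell by 0.69 at 6 weeks (adjusted p = 8.3e-08).

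Other genes listed with HSF1 went in both directions. Of 10 tested, 4 of which are also counted among the cochaperones, 3 rose and 3 fell at 4 weeks. At 6 weeks 1 rose and 7 fell. The list holds HSF4, itself a heat shock factor, which passed the test at neither age. Of all genes, 33.9% rose and 29.4% fell at 4 weeks, so the 4-week counts are near the background. At 6 weeks 22.7% of all genes rose and 18.4% fell. The 3 rises at 4 weeks were those of FKBP4 (0.61), CHORDC1 (0.40) and AHSA1 (0.24). With STIP1 these are the 4 cochaperones, and all 4 fell at 6 weeks. HMOX1, which degrades haem, fell by 2.38 at 4 weeks (edgeR adjusted p = 2.7e-16) and rose by 0.76 at 6 weeks (adjusted p = 0.0011). The small heat shock protein CRYAB fell by 1.96 and 0.79 (adjusted p = 4.8e-11 and 0.0035), and the collagen chaperone SERPINH1 by 1.39 and 1.15 (adjusted p = 2.2e-09 and 1.3e-06). Fibroblast markers fell beside SERPINH1, 6 of 10 at 4 weeks and 7 of 10 at 6 weeks, and their part in its fall was not tested. Smooth muscle markers fell too, 9 of 10 at 4 weeks and 6 of 10 at 6 weeks. Their part in the fall of CRYAB was not tested either.

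Of 10 clients of the cytosolic chaperonin, 3 rose and 2 fell at 4 weeks and 0 rose and 7 fell at 6 weeks. Among all genes 33.9% rose and 29.4% fell at 4 weeks, and 22.7% rose and 18.4% fell at 6 weeks. PLK1 and CDC20, which drive mitosis, made up 2 of the 3 rises of clients (1.5 and 1.54, edgeR adjusted p = 3.8e-09 and 1.6e-07) and 2 of the 7 falls. Those falls, −0.48 and −0.56, lay close to the threshold (edgeR adjusted p = 0.048 and 0.05). Of 12 cell cycle markers, 12 rose at 4 weeks and 3 fell at 6 weeks. TUBB4B and TUBA4A, of the tubulins, and ACTB, a cytoplasmic actin, fell at 6 weeks by 0.77, 0.77 and 0.47 (edgeR adjusted p = 1.6e-08, 1.9e-07 and 5e-05). The actin ACTG1 did not pass the test there (0.135, adjusted p = 0.29). TUBA4A and ACTB were the 2 falls at 4 weeks as well (−0.54 and −0.21, edgeR adjusted p = 3.4e-05 and 0.05), ACTB close to the threshold. TUBB, a further tubulin, rose by 0.39 at 4 weeks and fell by 0.43 at 6 weeks (edgeR adjusted p = 0.0073 and 0.0062). Of 3 prefoldin subunits, which hand actin and tubulin to the chaperonin, PFDN4 rose at 4 weeks (0.37, SE 0.12, adjusted p = 0.0044), and VBP1 and PFDN1 passed the test at neither age. Of the phosducin-like proteins PDCL3 and TXNDC9, which also bind the chaperonin, TXNDC9 fell at both ages, by 0.19 and 0.17 (adjusted p = 0.0027 and 0.013). Of 9 mitochondrial import and protease partners, 3 rose and 2 fell at 4 weeks and 2 fell at 6 weeks.

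The counts of members depended on scaling at 4 weeks and in fed piglets over age. Scaling by library size alone moved the median of all genes at 4 weeks from 0.03 to 0.25 and gave 29 rises and 9 falls among members, where 49.5% of all genes rose and 17.9% fell. In fed piglets from 4 to 6 weeks it moved the median from −0.01 to 0.20 and gave 33 rises and 10 falls, where 45.5% of all genes rose and 19.3% fell. The members' medians moved along, from −0.07 to 0.15 and from 0.15 to 0.37.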

How the data were processed

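RNA of jejunal mucosal scrapings was sequenced on a BGISEQ-500, and each of the 64 libraries comes from a separate pig per the labels. The labels' protocol speaks of muscle tissue at the extraction step. The deposited files hold raw counts of reads per Ensembl gene ID. STAR, HTSeq and the build Sscrofa11.1 are named by the submitters' processing notes, with no version. The strand setting is not given in the sources used here. Reads of overlapping and antisense genes therefore cannot be separated. HTSeq's no-feature class, 4.84 to 8.89% of the reads, stayed out of library sizes and tests.

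Symbols came from the reference gene table and paired 15029 of 31908 IDs. Locations of 61 of 62 members are RefSeq's on Sscrofa11.1, matched by symbol. The main test was edgeR 4.0.16 (R 4.3.3) with robust quasi-likelihood F tests, filterByExpr and TMM scaling (factors 0.758 to 1.383), with 1 mean per group and all 64 pigs in 1 model. P-values were Benjamini-Hochberg adjusted over 14062 genes, a call is adjusted p under 0.05, and SE is the log2 fold change over the square root of F. CPM are TMM-scaled. The member threshold used unscaled CPM. The procedure was tested on simulated data. Correlations used log2(CPM + 1) with 100000 resamples (Python 3.11.15, numpy 2.4.6, scipy 1.17.1).

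Alternatives were DESeq2 size factors, library size alone, no filter, DESeq2 1.42.0, limma-voom (limma 3.58.1), a test against 1.5-fold, marker covariates, fits of only the groups compared, a CPM threshold of 5, no fasted 4-week pigs 1, 28 and 32, and each pig left out in turn. The members, lists and tests were chosen with earlier results of these data known. Named with values are a fixed set of members and the 5 largest called rises and falls of each comparison. Other members with values (HSPA6, DNAJC11, DNAJC7 and BAG5) were chosen after their values were seen. Promoter motifs were not run, and no sequences were used here.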

Additional observations from a re-analysis of the deposited data

Results flagged for a closer look

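For 31 of the 37 members named by the rule, and for 44 of all 62 members, the effect of fasting differed between the ages by the test of the difference itself (edgeR, Benjamini-Hochberg adjusted p under 0.05 over all genes). The values given for those 31 are the effect at 6 weeks minus that at 4 weeks on the log2 scale, with 16 pigs in each of the 4 groups. Among HSP70, HSP110 and HSP90 genes the difference was −1.99 for HSPH1, −1.80 for HSP90AA1, −1.57 for HSPA4L, −1.40 for HSPA8, −0.74 for HSP90AB1 and −0.68 for HSPA4, and 0.78 for HSPA1L. Among chaperonin subunits it was −1.08 for TCP1, −1.03 for CCT5, −0.90 for CCT3, −0.84 for CCT4, −0.71 for CCT8 and −0.65 for CCT7. Mitochondrial members stood at −1.65 for HSPD1, −1.09 for HSPE1, −1.01 for HSPA9 and 0.56 for DNAJC28.

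The difference was −1.60 for DNAJA1, −1.19 for DNAJB4, −1.09 for HSPB1, −1.06 for DNAJB11, −0.36 for DNAJC10 and −0.34 for HSF1. It was positive for other J proteins and BAG4: 1.24 for DNAJC22, 1.05 for DNAJC16, 0.67 for BAG4, 0.60 for DNAJC25, 0.59 for DNAJC14, 0.52 for DNAJB14, 0.49 for DNAJC18 and 0.47 for DNAJB12.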

How the results depend on the processing

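No paired analysis was made, as the groups share no pig number and the labels name no pairs. Each pair of consecutive pig numbers held 1 fasted and 1 fed pig of the same age, and since the labels do not say what such pigs share, a block on them was not fitted. Under scaling by library size alone, falls among members were 9 at 4 weeks and 10 in fed piglets over age, DNAJB12 at 4 weeks stood at 0.04, and the correlation of HSPH1 with HSPA8 in fasted 6-week piglets was 0.591 and passed the test (permutation, adjusted p = 0.016). Tested against a 1.5-fold change, rises and falls were 2 and 3 at 4 weeks, 0 and 6 at 6 weeks, 2 and 16 for the difference between ages, 8 and 3 in fed and 0 and 2 in fasted piglets over age, and 0 members rose at 4 and fell at 6 weeks. Of all 14062 genes, 1564 rose and 1218 fell at 4 weeks in that test, 172 and 163 at 6 weeks, 1111 and 1562 for the difference, 1523 and 1278 in fed and 320 and 582 in fasted piglets over age. With the smooth muscle covariate 3 members rose at 6 weeks (21.9% of all genes), and HSPB6 stood at 0.35 at 4 weeks and at −0.44 for the difference. The cell cycle and immediate early covariates were chosen after seeing the data. With the cell cycle covariate 10 members rose at 4 weeks, the difference between ages was higher for 6 and lower for 17 (14 and 13.9% of all genes), and 11 rose and 6 fell in fed piglets over age. Values that turned sign there were those of HSPH1 (−0.03), HSPD1 (−0.07), HSPA9 (−0.23), TCP1 (−0.14), HSPA4L (−0.23) and DNAJB12 (0.08) at 4 weeks, DNAJC10 (0.11) for the difference, and HSPA9 (−0.02), TCP1 (−0.06), DNAJB11 (−0.07) and BAG4 (0.14) in fed piglets over age. The cause was not tested. Leaving out each pig gave 23 to 25 rises and 18 to 21 falls at 4 weeks, 5 to 8 and 30 to 34 at 6 weeks, 13 to 14 and 29 to 32 for the difference, 28 to 30 and 16 to 17 in fed and 8 to 11 and 26 to 29 in fasted piglets over age. These fits kept the dispersion trend of all pigs. Members that rose at 4 and fell at 6 weeks numbered 17 to 19 without any single pig, 18 with DESeq2 and 17 with limma-voom. Litter, pen and sequencing batch are not in the labels.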
